A study of Mus musculus with 12 samples.

Results

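The genes described here encode the machinery that prepares origins of DNA replication and runs the replication fork. They are 44 genes chosen by name from that pathway, of the 18163 genes with a symbol on the array, and each was read from the probe set with the highest mean log2(value + 16) over all arrays. All 44 were measured. They comprise 15 licensing genes (Orc1 to Orc6, Cdc6, Cdt1, Gmnn and Mcm2 to Mcm7), 9 genes of origin firing and its relatives (Cdc7, Cdc45, Gins1 to Gins4, Mcm10, Mcm8 and Mcm9) and 20 fork genes (Pcna, Rfc1 to Rfc5, Pola1, Pola2, Prim1, Prim2, Pold1 to Pold3, Pole, Pole2, Fen1, Lig1 and Rpa1 to Rpa3).

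Transcript levels were measured at the mid-2-cell stage on 12 Affymetrix arrays in 4 groups of 3. The Oct4-MO group had received 0.6 mM of a morpholino antisense oligonucleotide (MO) against the translational start of Oct4 (Pou5f1, a pluripotency transcription factor), and their reference was a set of uninjected embryos from the same pools, cultured beside them. Ccna2-MO embryos had received an MO against Ccna2 (cyclin A2, a partner of cell cycle kinases), for which the labels also give 0.6 mM and the study's methods a higher concentration, so that its dose is not settled, and had uninjected embryos of their own. All embryos were wild type, from superovulated F1 (C57BL6xDBA/2) females of 3 to 5 weeks mated with wild-type males, recovered at the pronuclear stage 17 h after hCG, and 20 embryos were pooled per array, with RNA worth 10 of them carried through 2 rounds of amplification. The references were not injected, so the effect of the microinjection and that of the MO cannot be told apart. An MO blocks translation and leaves the transcript in place, so the target's own probe set does not check the knockdown. Pou5f1 read 2289, 1825 and 2466 in Oct4-MO embryos, against 1798, 1859 and 2112 in their uninjected embryos, and Ccna2 read 3183, 3205 and 4398 in Ccna2-MO embryos, against 3949, 3444 and 4222 in theirs.

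Replication starts in steps. The origin recognition complex (ORC) binds DNA, and Cdc6 and Cdt1 load the Mcm2-7 helicase onto it, which is called licensing; geminin, the product of Gmnn, blocks Cdt1 so that an origin is licensed once per cycle. Cdc7 kinase and cyclin-dependent kinases then bring Cdc45 and the GINS complex to Mcm2-7, with Mcm10, and the helicase opens the DNA. At the fork, polymerase alpha with primase makes primers, the RFC complex loads the PCNA clamp, polymerases epsilon and delta extend the strands, Fen1 and Lig1 join Okazaki fragments, and replication protein A (RPA) covers single-stranded DNA. The fertilized egg enters its first S phases with maternal transcripts and proteins for this machinery, and the major activation of the mouse embryonic genome falls at the 2-cell stage.

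Many of these genes are known targets of E2F factors in cycling cells, and some of their promoters share a short sequence. Promoters from RefSeq (GRCm38.p6, 250 bases before to 50 after the start) were at hand for 36 of the 44 genes. The letters TTTCGCGC, TTTGGCGC, TTTCCCGC and TTTGCCGC, searched on both strands, were found for 16 of these 36 (44.4%), against 704 of 27025 genes (2.6%) and 744 of 32851 promoters (2.26%) in the same table. The windows below surround a match in Mcm genes and polymerase subunits whose values the results turn on. Capitals mark the matched letters, and each window is written 5′ to 3′ along the gene.
Mcm5, chr8:75109347-75109376, plus strand: gccaagaacTTTCGCGCCAAAacgtccagc
Mcm6, chr1:128359795-128359824, minus strand: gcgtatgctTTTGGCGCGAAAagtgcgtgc
Mcm7, chr5:138171849-138171878, minus strand: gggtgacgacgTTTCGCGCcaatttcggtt
Mcm3, chr1:20820275-20820304, minus strand: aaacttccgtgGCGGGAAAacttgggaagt
Pole2, chr12:69228162-69228191, minus strand: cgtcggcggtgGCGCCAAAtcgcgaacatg
Pold3, chr7:100121467-100121496, minus strand: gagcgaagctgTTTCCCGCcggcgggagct
In Mcm5 and Mcm6, matches on both strands overlap, and the run lies upstream of the start, from -153 to -142 in Mcm5 and from -110 to -99 in Mcm6. The other matches shown lie in the first transcribed bases. No match was found in the promoters of Fen1. A match describes letters and not a bound site.

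On these arrays the median value was 22.7 to 25.5, 39.3 to 42.7% of probe sets read under 16, and the depth of an array is limited by signal over background and by 3 arrays per group. Pools of embryos were the replicates. In such a pool, less RNA per cell and fewer cells that hold the RNA cannot be told apart. Summed embryo and oocyte markers (13 measured) were high on every array, at 23190 to 30990. The sum hid changes of single markers. Zar1 had log2 fold changes of 1.85 after Oct4-MO and 2.19 after Ccna2-MO (limma's adjusted p = 0.12 and 0.033). Trim43a had -1.12 and -0.38 (limma's adjusted p = 0.022 and 0.24). No other marker on this list had an adjusted p under 0.05. Of 11 cumulus cell markers 7 stayed under 50 on all arrays, Has2, Ptgs2, Tnfaip6 and Ptx3 among them, and the sum of the list, carried mostly by Amhr2, ranged over 329.6 to 615.4 in Oct4-MO embryos, beside 489.3 to 602.2 for their uninjected ones, and over 407.7 to 1165 in Ccna2-MO embryos and 736.4 to 1093 in theirs. Summed sperm markers, of which 3 of 5 stayed under 50, ranged over 314.5 to 353.7 in Oct4-MO embryos, beside 229 to 276.6 for their uninjected ones, and over 207.9 to 292.3 in Ccna2-MO embryos and 187 to 238.2 in theirs. The ratio of 3′ to 5′ Gapdh probe sets, a sign of RNA quality, was 2.8 to 5.94 in Oct4-MO embryos against 2.97 to 3.84 in their uninjected embryos, and 2.36 to 3.59 in Ccna2-MO embryos against 3.06 to 3.33 in theirs. The same ratio for Actb was under 1 on every array, at 0.308 to 0.824 in Oct4-MO embryos against 0.448 to 0.803 in their uninjected embryos, and 0.442 to 0.578 in Ccna2-MO embryos against 0.544 to 0.733 in theirs. The part of these differences in the results was not tested.

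All 44 genes lay above the median probe set of the array in mean log2 value; genes that do so are called the brighter genes below. Averaged over the arrays of a group, Gmnn gave 2077 ± 393.8 in Oct4-MO embryos, beside 2607 ± 228.1 for their uninjected ones, and 2143 ± 292.6 in Ccna2-MO embryos and 2633 ± 66.27 in theirs (SD, n = 3 each). Pcna gave 1806 ± 306.7 in Oct4-MO embryos, beside 1988 ± 145.1 for their uninjected ones, and 2283 ± 385.4 in Ccna2-MO embryos and 2294 ± 109.2 in theirs. At the dim end, Pold2 ranged over 23.23 to 84.82 and Rfc4 over 14.13 to 110.6 across the 12 arrays, close to the level where most probe sets of the array lie. The spread between arrays of a group had a median SD of 0.31 on the log2 scale (0.12 for Orc6 to 1.18 for Gins3), beside 0.33 for all genes and 0.39 for the brighter genes. The median of the 44 genes was 8.14 to 8.32 on the log2 scale on the Oct4-MO arrays and 8.42 to 8.59 on those of their uninjected embryos, with no overlap. It was 8.26 to 8.67 on the Ccna2-MO arrays and 8.57 to 8.75 on those of their uninjected embryos, with overlap.

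**Figure D1:**
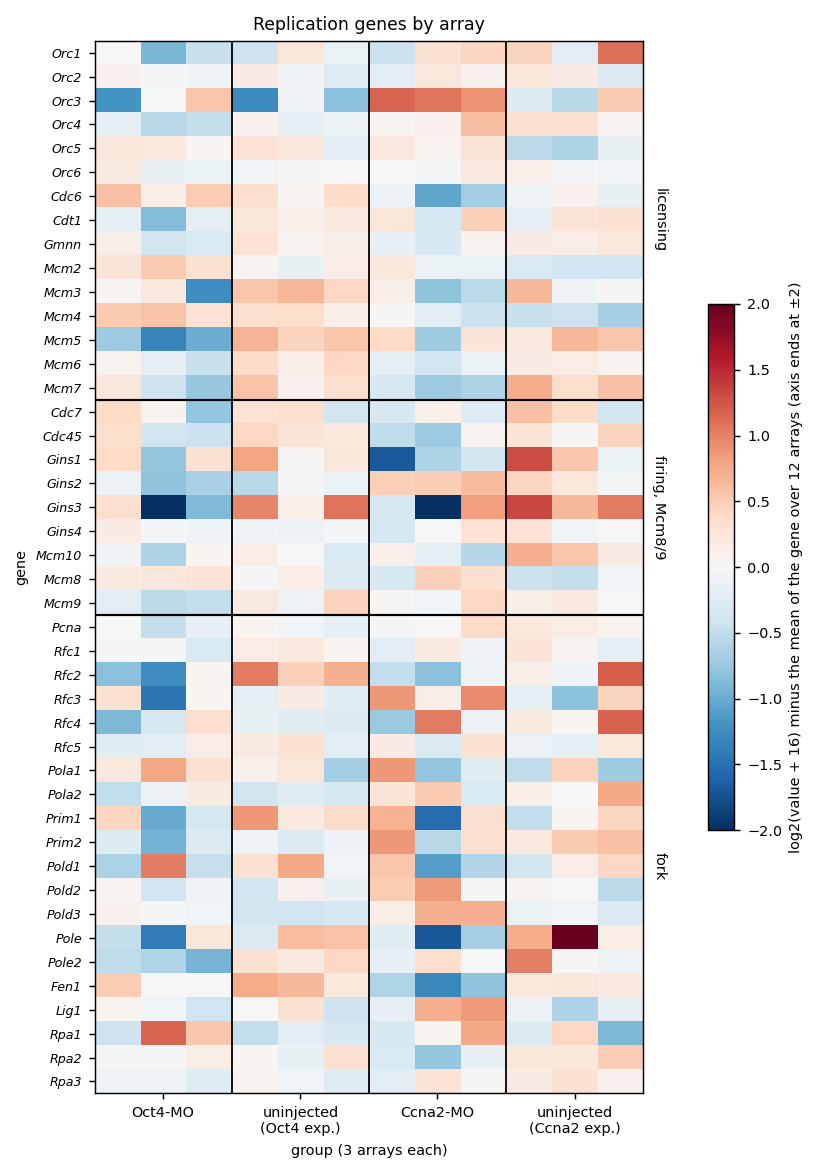
Each row is one of the 44 replication genes and each column an array, in the order Oct4-MO, their uninjected embryos, Ccna2-MO, their uninjected embryos; colour gives log2(value + 16) minus the mean of that gene over 12 arrays. Low cells of Mcm5 fill the Oct4-MO columns (337.3 to 521.2 in value) and low cells of Fen1 the Ccna2-MO columns (282.6 to 461.6), while most rows mix within groups.

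In Oct4-MO embryos none of the 44 genes passed an adjusted p of 0.05 in limma's test (Benjamini-Hochberg over 44937 probe sets), where 0.0936% of all genes and 0.0734% of all probe sets did. The lowest adjusted p was 0.065, for Mcm5. With an unadjusted p under 0.05 were 10 lower genes and 1 higher gene of the 44, together 25%, against 10.6% of all genes (5.96% lower, 4.66% higher) and 14.1% of the brighter genes. Of the 44 log2 fold changes 31 (70.5%) were below 0, against 48.5% of all genes and 51.8% of the brighter genes, and their median was -0.22, beside 0.01 and -0.02. The 3 arrays of Oct4-MO embryos lay wholly below those of their uninjected embryos for 9 genes and wholly above for 3 (27.3% together, against 18.8% of all genes, 9.57% below and 9.21% above, and 22.8% of the brighter genes). With the pair of pools as a block the lowest adjusted p among the 44 was 0.13, and over all probe sets the count of calls was 4 in place of 33.

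Of the 6 subunits of the Mcm2-7 helicase, Mcm5 differed most. It gave 521.2, 337.3 and 431.8 in Oct4-MO embryos, against 1406, 1199 and 1297 in their uninjected embryos. Every Oct4-MO value was under every uninjected value, at 0.335 times the level (log2 fold change -1.58, 95% interval -2.16 to -1, adjusted p = 0.065 in limma's test). This adjusted p passed 0.05 in 8 of 25 alternative analyses (range 0.0092 to 0.29), among them those without Ccna2-MO replicate 1 (0.048) and without Ccna2-MO replicate 2 (0.016), which change only the shared estimate of the spread. Mcm6 gave 2020, 1703 and 1411 in Oct4-MO embryos, against 2482, 2121 and 2566 in theirs, again without overlap, and its difference was smaller (-0.49 on the log2 scale, limma's adjusted p = 0.24).

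Mcm7 and Mcm3 pointed the same way with wider spread. Mcm7 gave 720.7, 461 and 356.3 in Oct4-MO embryos, against 920.4, 652.5 and 773.8 in their uninjected embryos, where 1 Oct4-MO array lay within the uninjected range (-0.64, limma's adjusted p = 0.45). Mcm3 gave 474, 535 and 187.5 in Oct4-MO embryos, against 686.9, 743 and 619.3 in theirs, a difference without overlap that owes its size to Oct4-MO replicate 3 (-0.87, limma's adjusted p = 0.49). The brightest probe sets of the remaining subunits lay on the other side of 0, Mcm2 at 925.5 ± 93.04 in Oct4-MO embryos and 723.8 ± 75.8 in uninjected embryos (0.35, no overlap) and Mcm4 at 1710 ± 174.9 and 1491 ± 131.4 (0.19), with limma's adjusted p of 0.56 and 0.78. A second probe set of Mcm2 gave 127.3, 284.1 and 170.8 in Oct4-MO embryos, against 230.3, 248.7 and 193.6 in uninjected embryos, with overlap and on the lower side (-0.26, limma's adjusted p = 0.87), so the direction of Mcm2 depended on the probe set.

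Of the other licensing genes, the helicase loader Cdt1 gave 1368, 850.8 and 1369 in Oct4-MO embryos, against 1832, 1679 and 1806 in their uninjected embryos. Groups did not overlap, and the log2 fold change was -0.59 (limma's adjusted p = 0.45). Its inhibitor Gmnn gave 2529, 1808 and 1893 in Oct4-MO embryos, against 2863, 2425 and 2533, with the first Oct4-MO array inside the uninjected range (-0.34, limma's adjusted p = 0.48). Cdc6, the other loading factor, averaged 1150 ± 189.1 in Oct4-MO embryos and 1023 ± 119.8 in uninjected embryos (0.16). The ORC genes showed no common direction. Of the 6, 3 were below 0 and 3 were not, with a median of 0.02 and a range of -0.35 (Orc1 and Orc4) to 0.52 (Orc3), and none had an adjusted p under 0.74 in limma's test. Orc6, the steadiest of the 44 genes, gave 1307 ± 177 in Oct4-MO embryos and 1302 ± 24.16 in uninjected embryos (0.00, 95% interval -0.29 to 0.28).

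Among the firing genes 6 of 7 were below 0 (median -0.30) and, by its brightest probe set, none was wholly separated from its uninjected embryos. The dimmer probe set of Gins3 was wholly lower (65.79, 48.24 and 56.43, against 113.2, 97.45 and 72.99), as were the dimmer ones of Mcm10. Without Oct4-MO replicate 2, Gins1 stood at 0.01 and Mcm10 at 0.03, and without Oct4-MO replicate 3 Cdc7 stood at 0.16. Gins3, a GINS subunit, had the largest difference, with 212.8, 16.22 and 83.74 in Oct4-MO embryos, against 345.6, 181.4 and 376.3 in their uninjected embryos. The second Oct4-MO array was near background and the first lay inside the uninjected range, so the estimate was wide (-1.75, 95% interval -3.48 to -0.02, limma's adjusted p = 0.53). Cdc45 averaged 429.9 ± 144.9 in Oct4-MO embryos and 575.7 ± 43.31 in uninjected embryos (-0.45), and the others ranged over -0.38 (Gins1) to 0.08 (Gins4). Mcm9, a helicase relative with a part in DNA repair, gave 287.9, 225.4 and 234.3 in Oct4-MO embryos, against 380.9, 311.1 and 465.8, without overlap (-0.59, limma's adjusted p = 0.43). Its partner Mcm8 averaged 245.5 ± 7.69 and 199.5 ± 31.38, on the other side of 0 (0.29).

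Of the fork genes 15 of 20 were below 0 in Oct4-MO embryos, and all 6 genes of the clamp and its loader were. This depended on single arrays for Rfc3 (0.26 without Oct4-MO replicate 2) and Rfc4 (0.23 without Oct4-MO replicate 1). Rfc2, a subunit of the clamp loader, gave 112.6, 81.23 and 219.1 in Oct4-MO embryos, against 447.6, 301.2 and 360.8 in their uninjected embryos. Its groups did not overlap and the level was 0.376 times that of uninjected embryos (-1.41, 95% interval -2.28 to -0.54, limma's adjusted p = 0.25). The other 5 genes of the clamp and loader had log2 fold changes of -0.28 (Rfc3) to -0.07 (Rfc4), and Pcna stood at -0.15. Pole2, the second subunit of polymerase epsilon, gave 60.1, 55.67 and 40.85 in Oct4-MO embryos, against 118.4, 108.2 and 129.1, also without overlap (-0.99, limma's adjusted p = 0.32). Pold3, an accessory subunit of polymerase delta, lay on the other side, with 1165, 1068 and 1059 in Oct4-MO embryos against 850.3, 830.5 and 871 (0.36, limma's adjusted p = 0.53), and it was the 1 gene higher at an unadjusted p under 0.05. The primer-making and single-strand binding genes ranged over -0.79 (Prim1) to 0.77 (Rpa1) with no adjusted p under 0.64.

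In Ccna2-MO embryos 1 of the 44 genes passed, Fen1, which was lower, while 0.930% of all genes (0.468% lower) and 0.748% of all probe sets passed. Fen1 encodes the flap endonuclease that trims Okazaki fragments. It fell to 461.6, 282.6 and 398.9 in Ccna2-MO embryos, against 821.8, 831.1 and 814 in their uninjected embryos. All Ccna2-MO values lay under all uninjected values, at 0.465 times the level (log2 fold change -1.11, 95% interval -1.59 to -0.62, limma's adjusted p = 0.044). The call did not hold with the pair of pools as a block (adjusted p = 0.061), and it was lost when any of 10 of the 12 arrays was left out (adjusted p 0.052 to 0.14), all but Oct4-MO replicate 1 and Ccna2-MO replicate 1. The second probe set of Fen1 gave 85.65, 25.79 and 25.56 in Ccna2-MO embryos, against 70.75, 77.54 and 91.34, with overlap (-0.77, limma's adjusted p = 0.40), and the name of the first carries the suffix that Affymetrix gives to probe sets open to cross-hybridization.

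Unadjusted, p was under 0.05 for 11 lower and 4 higher genes of the 44 in Ccna2-MO embryos (34.1%, against 16.7% of all genes, 8.50% lower and 8.22% higher, and 22.5% of the brighter genes). The log2 fold change was below 0 for 28 (63.6%, against 46.8% and 48.4%), with a median of -0.15 beside 0.03 for all genes and 0.02 for the brighter genes. Arrays lay wholly below those of the uninjected embryos for 9 genes and wholly above for 5, together 31.8%, against 19.2% of all genes (9.29% below and 9.89% above) and 23.7% of the brighter genes. The block gave 124 calls over all probe sets, in place of 336, and none among the 44.

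In the helicase, Mcm7 gave 489.4, 367.2 and 394.4 in Ccna2-MO embryos, against 1039, 788.9 and 929.2 in their uninjected embryos. No array overlapped and the level was 0.463 times that of uninjected embryos, as low a ratio as that of Fen1 (-1.11, 95% interval -1.65 to -0.57, limma's adjusted p = 0.064, and 0.061 with the block). Mcm6 gave 1678, 1477 and 1764 in Ccna2-MO embryos, against 2164, 2153 and 2007, without overlap (-0.36, limma's adjusted p = 0.25). This probe set is of the kind open to cross-hybridization. A second one gave 541, 399.6 and 575.1, against 491.4, 464.9 and 584.6, with overlap and means of 505.2 and 513.6. In Oct4-MO embryos the second was lower, with overlap, at 424.4, 271.8 and 239.5, against 485.4, 411.1 and 456.4. Mcm5 gave 1158, 529.4 and 1048 in Ccna2-MO embryos, against 1002, 1386 and 1286, where 2 of the 3 Ccna2-MO arrays lay inside the uninjected range (-0.48). The probe sets of Mcm2 went against each other. The brightest averaged 709.4 ± 110.9 in Ccna2-MO embryos and 548.3 ± 19.78 in uninjected embryos, higher without overlap (0.35, limma's adjusted p = 0.37), while the second gave 199.3, 227.6 and 185.2 in Ccna2-MO embryos, against 311.5, 370.3 and 309.8, lower without overlap (-0.66, limma's adjusted p = 0.31). Mcm4 averaged 1073 ± 168.3 in Ccna2-MO embryos and 867.3 ± 77.75 in uninjected embryos (0.29), and its second probe set also stood at 0.29. Mcm3 gave 509.8, 259.2 and 312.7 in Ccna2-MO embryos, against 730.8, 435.4 and 471.6, where the first Ccna2-MO array lay inside the uninjected range (-0.60, limma's adjusted p = 0.51).

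Some licensing genes lay higher in Ccna2-MO embryos. Orc3, an ORC subunit, gave 512.8, 479 and 423.3 in Ccna2-MO embryos, against 178, 144.3 and 323.5 in their uninjected embryos. Orc5, another subunit, gave 290.7, 265.5 and 307.5, against 170.9, 158.4 and 224.8. Neither overlapped, and their log2 fold changes were 1.15 and 0.61 (limma's adjusted p = 0.26 and 0.25). Cdc6 gave 786.9, 407.3 and 519 in Ccna2-MO embryos, against 803.4, 906.3 and 769.8, the first Ccna2-MO array inside the uninjected range (-0.57, limma's adjusted p = 0.27). The brightest probe set of Cdt1 averaged 1760 ± 496.7 in Ccna2-MO embryos and 1737 ± 304 in uninjected embryos (-0.01, 95% interval -0.51 to 0.49). A second one gave 422.1, 318.7 and 412.6 in Ccna2-MO embryos, against 643.9, 654.3 and 583.8, lower without overlap (-0.69, limma's adjusted p = 0.19), and in Oct4-MO embryos it stood at -0.64, close to the brightest. Gmnn gave 2097, 1877 and 2456 in Ccna2-MO embryos, against 2616, 2578 and 2707, every Ccna2-MO value under every uninjected value but by little (-0.30, limma's adjusted p = 0.35). The remaining ORC genes had log2 fold changes of -0.34 (Orc1), -0.01 (Orc2), 0.02 (Orc4) and 0.04 (Orc6), each with overlap.

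Of the 7 firing genes 6 were below 0, with a median of -0.65. Gins1 gave 22.24, 63.54 and 78.38 in Ccna2-MO embryos, against 284.8, 162.2 and 95.75 in their uninjected embryos. All were lower, but both groups spread widely and the first Ccna2-MO array was near background (-1.46, 95% interval -2.47 to -0.45, limma's adjusted p = 0.17). Mcm10, which helps to activate the helicase, gave 529.7, 429.7 and 328.2 in Ccna2-MO embryos, against 833.2, 732.4 and 558.5, without overlap (-0.71, limma's adjusted p = 0.22). These uninjected values lay wholly above those of the Oct4-MO experiment (551, 498 and 399.7), with which the Ccna2-MO values overlapped. The dimmer probe sets of Mcm10 overlapped between Ccna2-MO and uninjected embryos, the weakest at -0.21. Gins3 gave 131.7, 13.74 and 311.5 in Ccna2-MO embryos, against 448.4, 272.3 and 362, so that 1 array was inside the uninjected range and 1 under 16. Cdc45 averaged 361.4 ± 111.9 in Ccna2-MO embryos and 563.6 ± 87.56 in uninjected embryos (-0.65, limma's adjusted p = 0.29), and Gins2, at 0.32, was the 1 firing gene above 0, its 3 Ccna2-MO arrays (255.1, 259.3 and 289.2) just over the uninjected ones (249.1, 210.2 and 177.4). Cdc7, the kinase gene, was at -0.35 and Gins4 at -0.10. Mcm8 averaged 239 ± 68.27 in Ccna2-MO embryos and 164.9 ± 30.64 in uninjected embryos (0.47), and Mcm9 averaged 370.7 ± 70.35 and 361.7 ± 24.3 (0.02).

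At the fork, Rpa2, a subunit of RPA, gave 762, 547.1 and 851.9 in Ccna2-MO embryos, against 1107, 1107 and 1339 in their uninjected embryos, without overlap (-0.72, limma's adjusted p = 0.10). Its partners were at 0.41 (Rpa1) and -0.15 (Rpa3). Pole, the catalytic subunit of polymerase epsilon, gave 50.97, 8.45 and 33.98 in Ccna2-MO embryos, against 117, 410.8 and 72.14. The groups did not overlap, but 1 uninjected array was far above the others and 1 Ccna2-MO array was at background, so that its fold change of -1.98 had an interval of -3.27 to -0.68 (limma's adjusted p = 0.15). Lig1, the ligase that acts after Fen1, lay higher, at 441.3 ± 154.7 in Ccna2-MO embryos and 242.6 ± 47.15 in uninjected embryos, with overlap (0.77, limma's adjusted p = 0.28). Rfc2 gave 148.7, 112.4 and 198.2 in Ccna2-MO embryos, against 232.1, 199.2 and 517.3, below without overlap, though the nearest arrays of the groups almost touched (-0.88, limma's adjusted p = 0.35). For the rest of the fork genes, Pold3 apart, the groups overlapped. The clamp and loader genes among them ranged over -0.41 (Rfc4) to 0.83 (Rfc3), with Pcna at -0.02 (95% interval -0.33 to 0.30), and the primase and polymerase alpha genes over -0.21 (Prim2) to 0.20 (Pola1). Pold1 was at -0.44, Pold2 at 0.59 and Pole2 at -0.24.

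Pold3 was the clearest of the genes that lay higher in Ccna2-MO embryos. Its brightest probe set gave 1215, 1820 and 1832 in Ccna2-MO embryos, against 1004, 1059 and 901.8 in their uninjected embryos (0.68, limma's adjusted p = 0.081). A second probe set of the same gene, dimmer on average, gave 1085, 1331 and 1127 in Ccna2-MO embryos, against 329.6, 569.7 and 526.6, and it rose by 1.32 on the log2 scale (limma's adjusted p = 0.025, and 0.046 with the block). These uninjected values lay wholly below those of the Oct4-MO experiment (824.7, 900.2 and 640.4). For the brightest probe set the uninjected values lay wholly above those of the Oct4-MO experiment. The third gave 497.8, 689.8 and 552.8, against 303.9, 237.9 and 260.6 (1.07, limma's adjusted p = 0.084). In Oct4-MO embryos the same 2 dimmer probe sets stood at 0.69 and 1.07 (limma's adjusted p = 0.29 and 0.16), with every Oct4-MO array above every uninjected array for all 3. This second probe set was singled out after its values were seen.

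**Figure D2:**
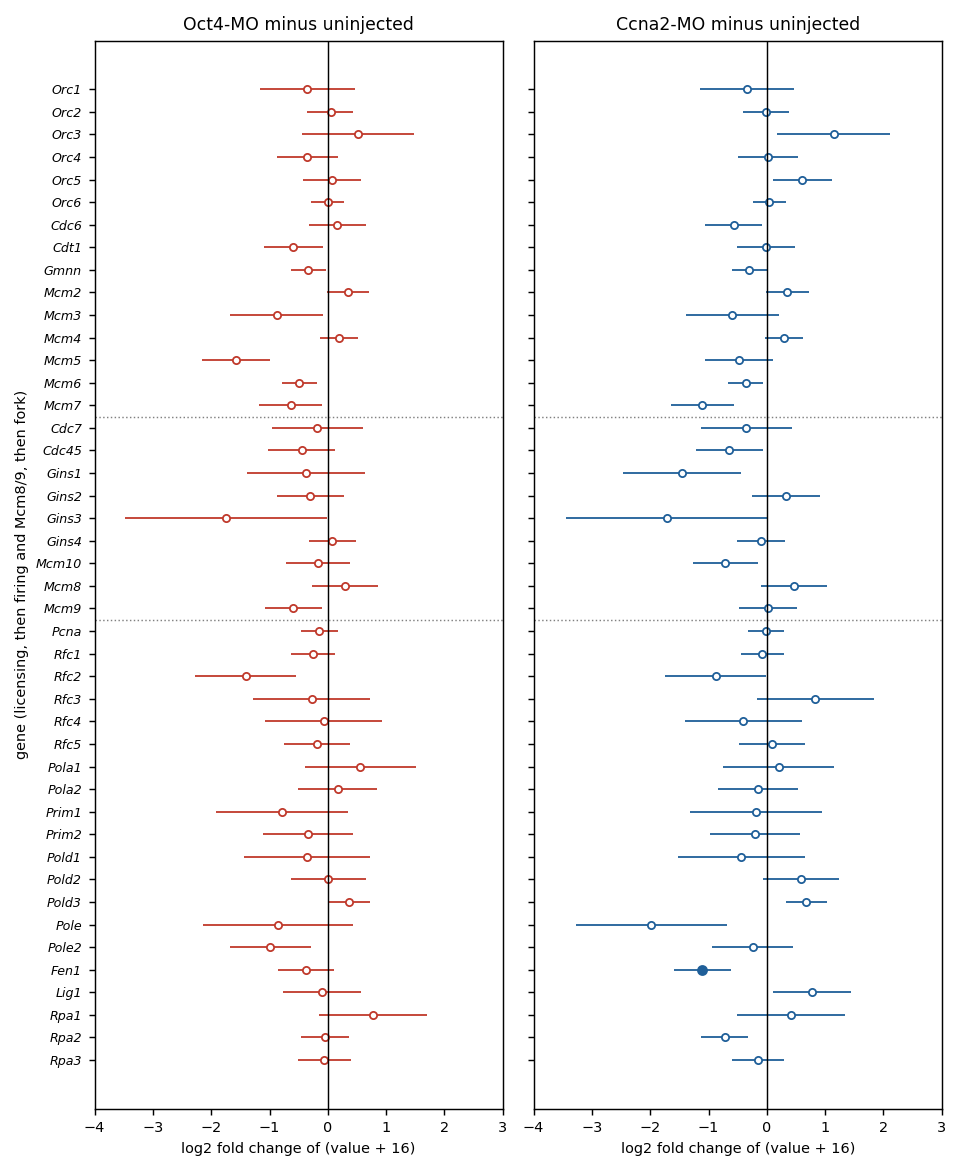
Points are log2 fold changes of (value + 16) and lines their 95% intervals for the 44 genes, Oct4-MO minus uninjected on the left and Ccna2-MO minus uninjected on the right; filled points passed an adjusted p of 0.05, and dotted lines separate licensing, firing and fork genes. Fen1 in Ccna2-MO embryos is the 1 filled point, and 31 points on the left and 28 on the right lie below 0.

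**Figure D3:**
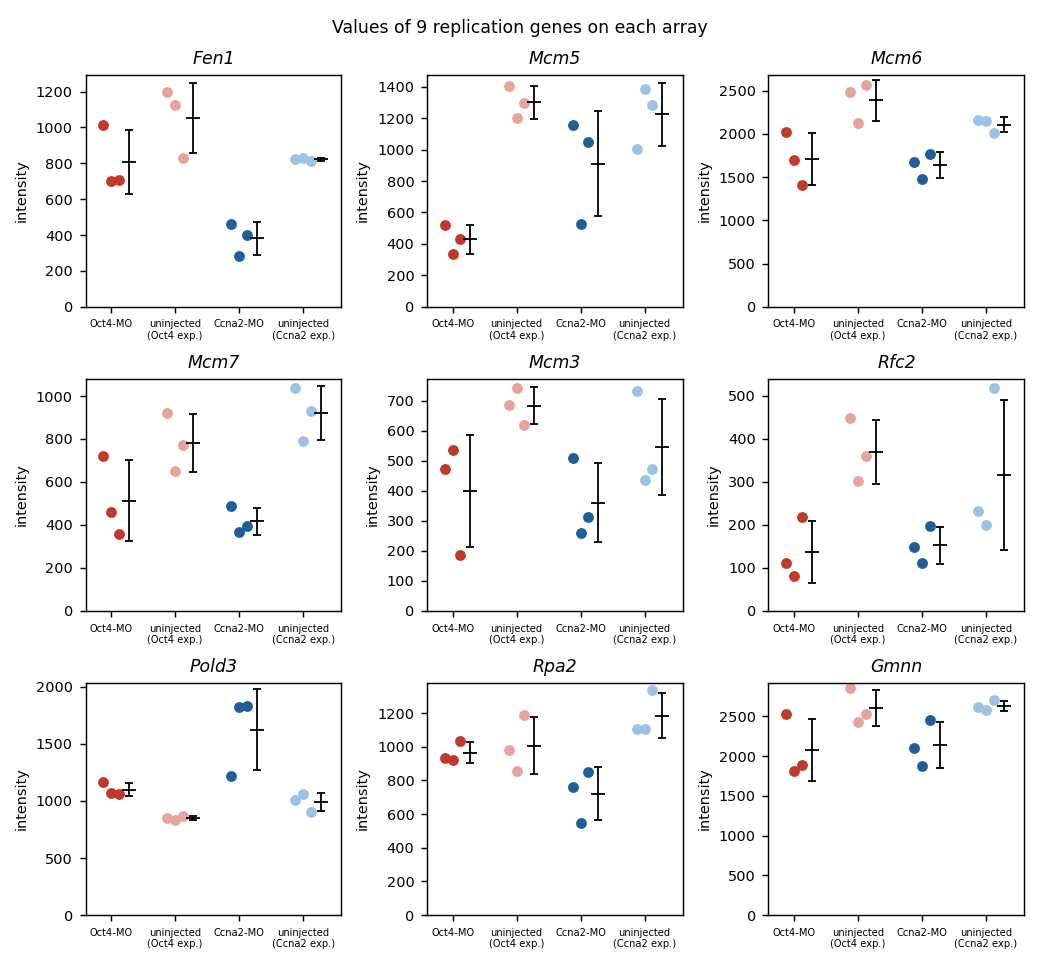
Intensity of 9 replication genes on each array (points) with the mean and SD of each group of 3 (black). Mcm5 is low on the Oct4-MO arrays (337.3 to 521.2) and Fen1 on the Ccna2-MO arrays (282.6 to 461.6), and the Ccna2-MO values of Mcm7 (367.2 to 489.4) lie under those of their uninjected embryos (788.9 to 1039).

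Several genes had more than 1 probe set, 96 for the 44 genes in all, which gives a second reading of the same RNA but no further replicate. All 5 probe sets of Mcm3, all 4 of Mcm7 and all 3 each of Mcm5, Mcm10 and Rfc2 were below 0 in both knockdowns. For Rfc2 they ranged over -1.41 to -1.04 in Oct4-MO embryos and -0.88 to -0.64 in Ccna2-MO embryos, and for Mcm7 over -0.96 to -0.38 and -1.11 to -0.22. Pold3 and Orc3 had 3 of 3 above 0 in both. Of the kind open to cross-hybridization were the dimmer probe sets of Rfc2, the dimmest of Pold3 and a dimmer probe set each of Mcm7 and Mcm3. Probe sets of Mcm5 were uneven in Oct4-MO embryos. Its brightest, also of the kind open to cross-hybridization, stood at -1.58, a second gave 3.51, 116.9 and 27.29, against 276, 137.3 and 122.8 in uninjected embryos (-1.93, limma's adjusted p = 0.31), and the dimmest stood at -0.02. Those of Pole2 (-0.99 and 0.55) and Fen1 (-0.38 and 0.42) had opposite signs in those embryos. The second of Pole2 was near background but for 1 array, at 4.63, 2.1 and 100.8, against 4.45, 13.02 and 7.31. Signs were opposite there for Orc1 (-0.35 and 0.57), Cdc7 (-0.18 and 0.31) and Cdc45 (-0.45 and 0.34) too. Probe sets of Cdt1, Mcm2, Rfc1 (-0.67 to 0.10), Prim2 (-0.34 to 0.30) and Pold1 also lay on both sides of 0 in Oct4-MO embryos. In Ccna2-MO embryos those of Cdc45 also differed in sign (-0.65 and 0.26), as did those of Orc4 (-0.70 to 0.62) and Mcm9 (-0.55 to 0.68). So did those of Orc1, Orc2, Mcm2, Mcm6, Rfc1, Pola1, Prim2 and Pole2. Cdc7 and Cdc45 were counted as below 0 by their brightest probe sets. Orc4 had 4 of 4 below 0 in Oct4-MO embryos, and one of them gave 64.74, 3.28 and 40.64, against 285.7, 259.4 and 282.7 in uninjected embryos (-2.71, limma's adjusted p = 0.15), while the brightest stood at -0.35.

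**Figure D4:**
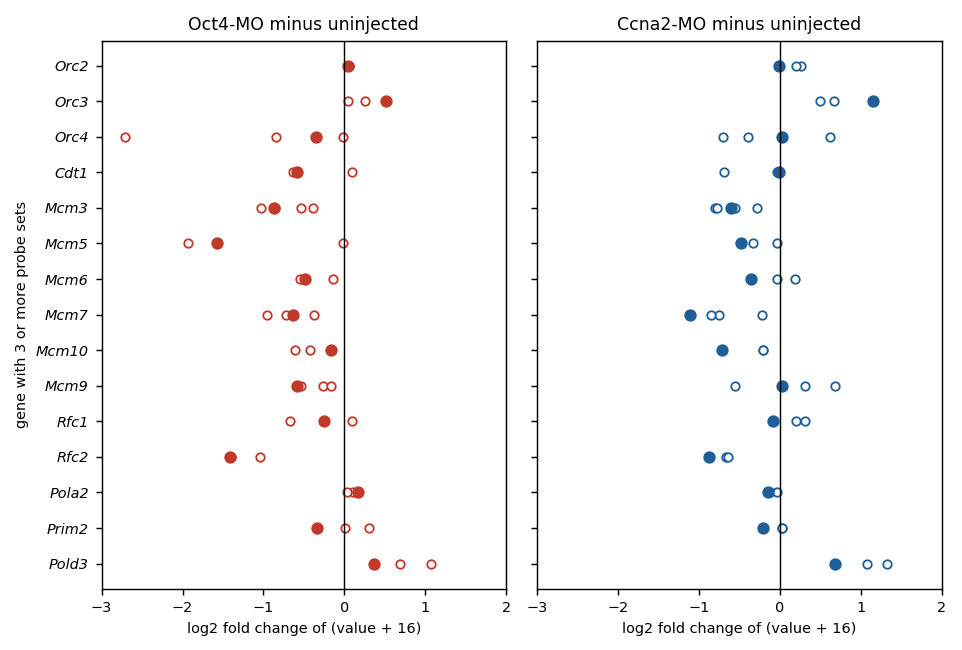
Log2 fold changes of every probe set of the 15 replication genes with 3 or more probe sets, Oct4-MO minus uninjected on the left and Ccna2-MO minus uninjected on the right; filled points are the brightest probe set of a gene and open points the others. All points of Mcm3, Mcm7 and Rfc2 lie left of 0 in both panels and all points of Pold3 lie right of it.

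The knockdowns were set against each other by the change in Ccna2-MO embryos minus that in Oct4-MO embryos, each against its own uninjected embryos. None of the 44 genes passed (0.00% of all genes did), and the lowest adjusted p was 0.67 in limma's test. At an unadjusted p under 0.05 there were 4 genes (9.09%, against 7.11% of all genes). Mcm5 changed by -0.48 in Ccna2-MO embryos and -1.58 in Oct4-MO embryos, a difference of 1.10 (95% interval 0.27 to 1.92). Fen1 changed by -1.11 in Ccna2-MO embryos and -0.38 in Oct4-MO embryos (difference -0.73, interval -1.41 to -0.05). Rpa2 changed by -0.72 and -0.05 (difference -0.67, interval -1.25 to -0.10) and Cdc6 by -0.57 and 0.16 (difference -0.73, interval -1.42 to -0.04). At the second probe set of Rpa2 the changes were close, -0.54 in Ccna2-MO embryos and -0.50 in Oct4-MO embryos, each with overlap. For each of the other 40 genes the interval of the difference included 0, and its median halfwidth over the 44 was 0.81.

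Between the uninjected embryos of the experiments none of the 44 genes passed, and 0.116% of all genes did. Mcm4 gave 900.5, 923 and 778.5 in uninjected embryos of the Ccna2-MO experiment, against 1543, 1588 and 1341 in those of the Oct4-MO experiment, without overlap (-0.77, 95% interval -1.10 to -0.44, limma's adjusted p = 0.099). Mcm2 gave 570.9, 539.4 and 534.4, against 738.7, 641.7 and 791 (-0.39, limma's adjusted p = 0.41). Second probe sets of both genes did not show this difference. The one of Mcm4 gave 817.8, 902.9 and 827.5 in uninjected embryos of the Ccna2-MO experiment, against 912.3, 880.4 and 681.4 (0.05, limma's adjusted p = 0.94), and the first is of the kind open to cross-hybridization. The one of Mcm2 gave 311.5, 370.3 and 309.8, against 230.3, 248.7 and 193.6, higher without overlap (0.53, limma's adjusted p = 0.49). Orc5 was lower as well in the uninjected embryos of the Ccna2-MO experiment, at 184.7 ± 35.27, against 273.8 ± 52.69 in those of the Oct4-MO experiment (-0.53), so the 287.9 ± 21.16 of Ccna2-MO embryos lay at the level of the Oct4-MO experiment (284.4 ± 20.33 in Oct4-MO embryos). Over the 44 genes the median difference was 0.01, 9 were without overlap (20.5%, against 22.7% of all genes), and these 3 were the genes with an unadjusted p under 0.05 (6.82%, against 12%).

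By promoter sequence, the 16 genes with a match had a median log2 fold change of -0.35 in Oct4-MO embryos (11 below 0) and -0.29 in Ccna2-MO embryos (10 below 0). The 20 genes with a promoter and no match had -0.11 (13 below 0) and -0.05 (12 below 0). The match was present in genes on both sides, Mcm5, Mcm6, Mcm7 and Mcm3 below 0 and Pold3 and Orc3 above. Fen1 and Rpa2 had none.

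Around this core, 36 of 39 further replication genes (fork protection, translesion synthesis, primer removal and licensing control) were measured, and none passed in either knockdown. Unadjusted, p was under 0.05 for 4 lower and 1 higher gene in Oct4-MO embryos (13.9%, against 10.6% of all genes), and for 4 lower and 3 higher genes in Ccna2-MO embryos (19.4%, against 16.7%). Rif1, which controls the timing of origins, gave 1336, 1290 and 1279 in Oct4-MO embryos, against 1986, 1726 and 2113 in their uninjected embryos, without overlap and with a narrow spread (-0.57, limma's adjusted p = 0.12). Timeless, of the fork protection complex, gave 874.8, 696.3 and 642.1, against 463.4, 439 and 329.4 (0.82, limma's adjusted p = 0.29). Top1, a topoisomerase, Rnaseh2a, a subunit of RNase H2, and Dna2, a nuclease of Okazaki fragments, stood at -0.34, -0.66 and -0.86.

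In Ccna2-MO embryos the lowest adjusted p of these further genes belonged to translesion polymerases. Rev1 gave 390.7, 230 and 304.6, against 167.8, 97.67 and 175 in uninjected embryos (1.00, limma's adjusted p = 0.13), and Polk gave 113.2, 51.52 and 28.46, against 15.62, 18.67 and 14.05, close to background in uninjected embryos (1.19, limma's adjusted p = 0.12). Neither overlapped. For both genes these uninjected values lay wholly below those of the Oct4-MO experiment (Rev1 -0.46, Polk -0.47, limma's adjusted p = 0.58 and 0.63). Uninjected embryos of the Oct4-MO experiment gave 34.97, 29.33 and 21.92 for Polk, and the third Ccna2-MO array (28.46) lay among them. For Rev1 they gave 217.3, 179.4 and 212.7, under every Ccna2-MO value. Chtf8, of an alternative clamp loader, gave 381.6, 230.8 and 550.9 in Ccna2-MO embryos, against 679.1, 632.4 and 704.3 (-0.85, limma's adjusted p = 0.17). Pole4, a small subunit of polymerase epsilon, and Skp2, which marks Cdt1 and other cell cycle proteins for destruction, stood at -0.48 and -0.57. The uninjected values of Pole4 lay wholly above those of the Oct4-MO experiment (0.48, limma's adjusted p = 0.34). Over 25 alternative analyses the log2 fold change of Pole4 in Ccna2-MO embryos ranged over -0.67 to -0.01.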

How the data were processed

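RNA of pooled mouse 2-cell embryos was hybridised to Affymetrix Mouse Genome 430 2.0 arrays. Normalization was done by the authors in dChip (version and options not given in the sources used here), and the deposited value of a probe set is a linear intensity. Of 45001 probe sets 64 controls were left out, which leaves 44937. By the platform annotation 34849 have 1 symbol, 928 several (not named) and 9160 none; all 44 genes matched RefSeq by gene ID.

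Values were analysed as log2(value + 16), so fold changes of dim probe sets are understated. One model of 4 group means was fitted over 12 arrays (R 4.3.3, limma 3.58.1, eBayes with intensity trend, two-sided) with Benjamini-Hochberg adjustment over all probe sets. No array depth is given, and the number of arrays limits the precision. p-values set the difference of group means against the spread between pools. Groups and replicates came from the labels, by which a number marks an injected and an uninjected pool of the same embryos; deviations of pairs correlated at -0.0128 to 0.114, and the pair was tried as a block.

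The 44 genes and the lists were chosen with earlier results of these data known. Named with values were genes that passed, the 10 lowest p per knockdown, the 4 lowest for the difference, the 2 brightest and 2 dimmest, and the 5 lowest p per knockdown among further replication genes. Alternatives are given in the closing section. The fit was tested on simulated data.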

Additional observations from a re-analysis of the deposited data

How the results depend on the processing

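None of the 44 genes passed in Oct4-MO embryos and 1, Fen1, passed in Ccna2-MO embryos; these counts moved with the processing. In Ccna2-MO embryos the count was 0 with the replicate block of paired pools, with only the 6 arrays of the comparison, without the intensity trend, with 64 added before log2, with array weights and by the methods' t-test. It was 3 with the test confined to the brighter genes (Mcm7, Pold3 and Fen1), 2 after median centring (Mcm7 and Fen1) and 2 with all 6 uninjected arrays as controls (Pold3 and Fen1). In Oct4-MO embryos it was 1, Mcm5 each time, with the brighter genes alone, after quantile normalization, after median centring, with array weights, with all 6 uninjected arrays as controls and with p adjusted over 1 probe set per gene, an alternative chosen after seeing the data. Between the uninjected groups it was 1 (Mcm4) with array weights. With 1 array left out in turn the counts ranged over 0 to 1 in Oct4-MO embryos, 0 to 2 in Ccna2-MO embryos and 0 to 0 for the difference and for the uninjected groups. The cause was not tested. Over the alternatives the median of the 44 genes stayed below 0 in Oct4-MO embryos (-0.31 to -0.12) and in Ccna2-MO embryos (-0.20 to -0.04). Fen1 passed in 8 of 25 alternatives in Ccna2-MO embryos (adjusted p 0.017 to 0.37), Mcm7 in 3 and Pold3 in 4, and Mcm5 in 8 of 25 in Oct4-MO embryos. Where the Ccna2-MO count stayed at 1, the gene that passed was not always Fen1.

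Of the 44 log2 fold changes, 30 for Oct4-MO and 28 for Ccna2-MO kept their sign in all 25 alternatives, and those that changed it were at most 0.38 and 0.35 in size. Among them, averaging the probe sets put Fen1 at 0.02 in Oct4-MO embryos and Mcm2 at -0.15 in Ccna2-MO embryos, and all 6 uninjected arrays as controls put Mcm4 at -0.09 in Ccna2-MO embryos. Between the uninjected groups 23 kept their sign in all 23 alternatives, and the mean of probe sets put Mcm2 at 0.07. Among the further replication genes, the mean of all probe sets put Top1 at 0.28 for Oct4-MO and at 0.18 for Ccna2-MO embryos and Timeless at -0.57 in Ccna2-MO embryos; all 6 uninjected arrays as controls put Polk at 0.11 for Oct4-MO and Rnaseh2a at 0.41 for Ccna2-MO embryos; array weights put Timeless at -0.02 in Ccna2-MO embryos. With 1 array left out in turn, Pole4 ranged over -0.23 to 0.01 in Oct4-MO embryos, and in Ccna2-MO embryos Timeless ranged over -0.22 to 0.17, with -0.03 and -0.11 among its values, and Rnaseh2a over -0.14 to 0.09, with 0.07 and 0.04 among its values. Dna2 reached 0.15 there. Intensities near 16 limit Pole, Gins3, Rfc4 and Polk.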
